A study of Mus musculus with 35 samples.

Results

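The thrombospondins Thbs1, Thbs2, Thbs3 and Thbs4, the tenascins Tnc, Tnn and Tnxb, periostin (Postn) and the SMOC proteins Smoc1 and Smoc2 are 10 of the 21350 genes in a mouse RNA sequencing table of 35 libraries. They were taken by gene name. The set was chosen by measured values as well, because Thbs4, Tnn and Smoc2 had been noted to move strongly with the growth factor BMP4. The values with and without BMP4 are therefore given as a description, with no test.

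Matricellular proteins are secreted into the extracellular matrix, where they modulate how cells attach, migrate and receive growth factor signals rather than building the scaffold itself. Thrombospondins and tenascins bind integrins and other surface receptors, and periostin helps organise collagen. SMOC proteins are calcium-binding relatives of SPARC, and Smoc1 is known in frog embryos as an antagonist of BMP signalling. Fibroblasts are a main source of many of these proteins, and reprogramming towards pluripotency replaces the fibroblast programme with an embryonic one.

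The cells had been infected with factor combinations labelled OB, OA and ODR and grown in iCD1, a reprogramming medium. The labels do not expand these names or give the cells that were infected, while Oct4 and Kdm2b are named in the title and design text of the series. OB had 2 libraries at day 1, 4 at day 6, 3 at day 14 and 2 at day 6 with BMP4 at 10 ng/ml, given from the change to iCD1 on. OA had 2 libraries at day 1, 3 at day 6 and 3 at day 14. ODR had 2 at day 1, 2 at day 6, 3 at day 14 and 1 at day 6 with BMP4. Libraries without replicates were ODDR and ODB at day 9, a day 9 library with BMP4, and 1 library each of mouse fibroblasts (MEF) and embryonic stem cells (mESC). Nothing says that replicates came from separate cultures, so the p-values cover only differences among these libraries, which could be technical.

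Some libraries needed care before any comparison. The column labelled ODR day 6 replicate 3 held the same values at all 21350 genes as the one labelled ODR with BMP4 day 6 replicate 2, and it was left out of both groups. It had Id1 at 37 and Msx1 at 42, against 1046 and 690 in the other ODR library with BMP4, while the ODR day 6 libraries without BMP4 had Id1 at 39 and 50 and Msx1 at 54 and 49. The BMP4 columns of ODDR and ODB at day 9 were also identical and are called the shared day 9 library. Kdm2b ranged from 4220 to 18690 in the 11 OB libraries and from 230 to 460 in the 8 ODR libraries. Kdm2a ranged from 9294 to 18690 in 7 of the 8 OA libraries and from 686 to 1254 in the 19 OB and ODR libraries. The library labelled OA day 14 replicate 2 went against its label, with Kdm2a at 721. It also stood apart in Id1, a target of BMP signalling, at 722, against 157 and 71 in the other OA day 14 libraries. Results are given with and without it.

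The deposited unit is a normalized tag count score in whole numbers, in which every library has nearly the same distribution. Its ceiling of 18690 is held by 9 or 10 genes in each library, and the next level, 9314, lies 1.00 below it on the log2 scale. At the top, a value is in effect a rank. This touches Thbs1 and Postn most, since a step of 1 in log2 there can be a move from rank 14 to rank 1. Depth is unknown in this unit, so no counting interval is given, and levels are compared within a gene and not between genes. In bulk RNA, fewer cells of a type and less RNA per cell cannot be told apart.

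**Figure D1:**
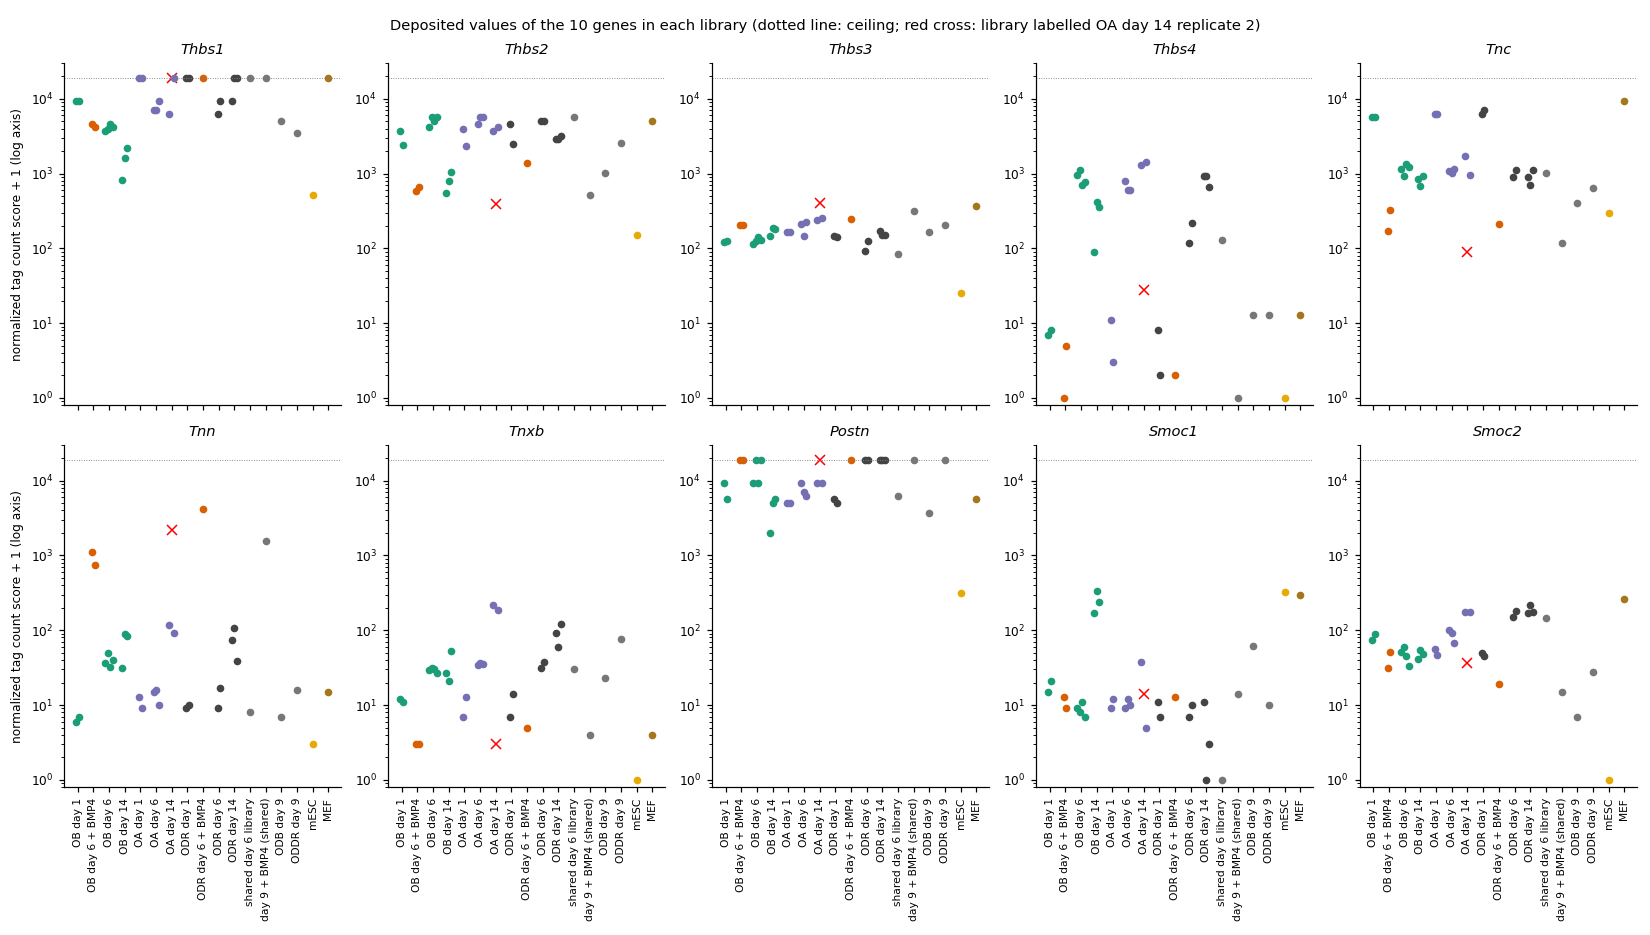
Deposited value plus 1 (log axis) of the 10 genes in each library, with OB groups left of OA and ODR groups and unreplicated libraries at the right. Each point is 1 library, the dotted line is the ceiling of 18690, and the red cross is the library labelled OA day 14 replicate 2, where Tnn is at 2216 and Thbs4 at 27.

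With BMP4 at day 6, Thbs4 was near 0 and Tnn was high in both factor combinations, and these are values that chose the set. Thbs2, Tnc and Tnxb were also lower with BMP4 in both. Over all 13860 genes measured, 21.1% differed by at least 1 on the log2 scale in OB and 20.2% in ODR. Of the 10 genes, 5 did so in OB (1 higher, 4 lower) and 8 in ODR (3 higher, 5 lower), and nothing is read from these counts since the choice of genes used this contrast.

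The promoters of Thbs4, Thbs2 and Tnxb, which were lower with BMP4, and of Tnn, which was higher, are shown because these genes moved together or opposite to each other with BMP4. They are RefSeq windows of 300 bases on GRCm38.p6, from 250 before to 50 after the start site, printed 5′ to 3′ on the gene's strand. Capitals mark CAGAC or its reverse complement GTCTG, letters bound by SMAD3 and SMAD4, and TTTATA, the reverse complement of the TATA box letters TATAAA. The windows lie at chr13:92794769-92795068 (minus strand) for Thbs4, chr17:14694213-14694512 (minus strand) for Thbs2, chr17:34670285-34670584 (plus strand) for Tnxb and chr1:160153526-160153825 (minus strand) for Tnn.
Thbs4: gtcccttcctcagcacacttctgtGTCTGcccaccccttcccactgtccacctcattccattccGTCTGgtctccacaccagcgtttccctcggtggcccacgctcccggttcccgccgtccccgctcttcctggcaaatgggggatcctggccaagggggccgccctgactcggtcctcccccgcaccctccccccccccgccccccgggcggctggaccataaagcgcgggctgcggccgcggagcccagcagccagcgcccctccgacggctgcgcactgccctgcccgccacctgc
Thbs2: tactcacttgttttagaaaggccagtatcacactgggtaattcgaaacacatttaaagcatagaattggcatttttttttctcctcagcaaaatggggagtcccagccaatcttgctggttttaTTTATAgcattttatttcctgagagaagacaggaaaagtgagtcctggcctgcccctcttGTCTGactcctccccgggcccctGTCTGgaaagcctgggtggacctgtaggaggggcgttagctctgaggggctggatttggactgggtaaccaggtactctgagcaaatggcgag
Tnxb: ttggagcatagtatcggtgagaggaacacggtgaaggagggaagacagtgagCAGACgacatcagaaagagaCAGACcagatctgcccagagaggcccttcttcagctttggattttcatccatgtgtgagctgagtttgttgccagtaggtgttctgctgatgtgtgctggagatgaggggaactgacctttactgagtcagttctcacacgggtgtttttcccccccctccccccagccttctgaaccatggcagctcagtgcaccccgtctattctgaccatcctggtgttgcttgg
Tnn: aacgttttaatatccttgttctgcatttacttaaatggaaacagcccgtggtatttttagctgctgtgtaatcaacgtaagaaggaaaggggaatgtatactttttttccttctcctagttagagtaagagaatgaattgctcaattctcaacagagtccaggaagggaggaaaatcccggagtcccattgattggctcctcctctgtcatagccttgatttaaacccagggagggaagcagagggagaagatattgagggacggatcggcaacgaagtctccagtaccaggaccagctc
Thbs4, Thbs2 and Tnxb each held 2 CAGAC matches, Tnn held none, and 49.6% of 32841 promoters in the RefSeq table held at least 1. No window of the 7 genes found in that table held GGCGCC, an element bound by SMAD1 and SMAD5, which 11.9% of all promoters held. TATAAA stood in 13.6% of all promoters and, among the 4 windows shown, in that of Thbs2 alone. Tnc, also lower with BMP4, has 2 windows that are not shown. They held 1 and 2 CAGAC matches and 1 TATAAA match each. Nothing is therefore read from which of the shown windows held a match. The Thbs4 window was 72.0% G or C and the Tnn window 44.3%, against a median of 52.7% over all promoters. A match is a description of letters on either strand and not a binding site, and no match overlaps another in these windows.

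Thbs4, a thrombospondin of tendon, muscle and nerve matrix, was at 0 and 4 in OB cells with BMP4, against 952, 1106, 693 and 760 in OB cells without it. In ODR cells it was at 1 with BMP4, against 118 and 215 without. The log2 difference was -8.59 in OB and -6.32 in ODR, sizes that depend on the 1 added before the log. The libraries did not overlap in either combination, but ODR had only 1 library with BMP4. The share of all genes without overlap was not counted, here or below. Nothing is therefore read from a lack of overlap in groups this small. At day 9 Thbs4 was listed at 0 in the shared BMP4 library and at 12 in both ODB and ODDR.

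Tnn (tenascin-W), a tenascin of bone and periosteum that BMP proteins are known to induce in cultured cells, moved the other way. It was at 1115 and 734 in OB cells with BMP4, against 36, 49, 31 and 39 without. In ODR cells it was at 4217 with BMP4, against 8 and 16 without. Every BMP4 library was above every library without BMP4 of its own combination, by 4.53 on the log2 scale in OB and 8.41 in ODR. The shared day 9 library had 1556, against 6 in ODB and 15 in ODDR.

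Tnxb (tenascin-X), a collagen-associated tenascin of connective tissue, was at 2 and 2 in OB cells with BMP4, against 28, 30, 29 and 26 without. In ODR cells it was at 4 with BMP4, against 30 and 37 without. These low levels did not overlap, with log2 differences of -3.28 and -2.78. The shared day 9 library had 3, against 22 in ODB and 75 in ODDR.

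Thbs2, which limits vessel growth and shapes collagen fibrils, was at 582 and 660 in OB cells with BMP4, against 4217, 5617, 5078 and 5617 without. Its ODR value was 1364 with BMP4, against 5078 in each library without, and the log2 differences were -3.04 in OB and -1.90 in ODR. Tnc (tenascin-C), abundant in embryos and healing wounds, followed the same direction, at 172 and 323 in OB with BMP4 against a range of 936 to 1352 without. In ODR Tnc was at 209 with BMP4, against 888 and 1108 without.

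Smoc2 and Thbs1 did not show 1 pattern across the combinations. Smoc2, which promotes vessel growth and marks intestinal stem cells, was at 30 and 50 in OB cells with BMP4, against 50, 58, 44 and 32 without, and these libraries overlapped. In ODR cells Smoc2 was at 18 with BMP4, against 149 and 180 without, a log2 difference of -3.12 that rests on 1 BMP4 library. Thbs1, which can activate latent TGF-beta, was at 4626 and 4220 in OB with BMP4, within the range of 3698 to 4626 without. In ODR Thbs1 reached the ceiling with BMP4, against 6246 and 9306 without, a log2 difference of 1.29 whose size depends on the step to the ceiling.

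Thbs3 was at 202 and 207 in OB cells with BMP4, against a range of 114 to 140 without, and at 244 in ODR with BMP4, against 91 and 124 without. Postn was at the ceiling in every day 6 BMP4 library, in 2 of 4 OB libraries without BMP4 and in both ODR libraries without it, so it bounds nothing. Smoc1 stayed at 12 or lower in all day 6 libraries of both combinations.

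**Figure D2:**
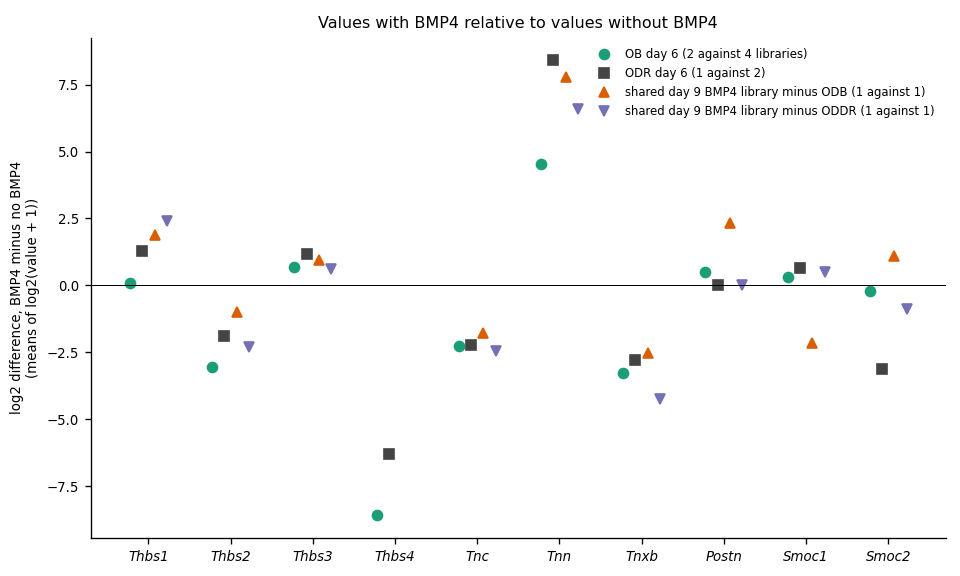
Log2 difference of the mean log2(value + 1) between libraries with and without BMP4 (y axis) for the 10 genes, in OB and ODR at day 6 and in the shared day 9 library against ODB and ODDR. Thbs4 is drawn for day 6 alone because it is listed at 0 in the day 9 BMP4 library, and Tnn lies above 0 and Thbs2, Tnc and Tnxb below 0 in all series drawn.

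Markers of other cell types moved with BMP4 too. The 13 BMP pathway targets summed to 7556 and 8246 in OB with BMP4, against 172 to 299 without, and to 5605 in ODR with BMP4, against 271 to 285 without. The 6 tendon markers summed to 370 to 398 in OB with BMP4, against 38 to 60 without, and to 575 in ODR with BMP4, against 45 to 74 without. Most of that sum was Fmod, at 310 and 328 in OB with BMP4, while Chad was at 0 in all OB day 6 libraries, and Tnmd, Kera and Chad were at 0 in ODR with BMP4. The 10 fibroblast markers summed to 24001 to 24960 in OB with BMP4, against 27342 to 39625 without, and to 15456 in ODR with BMP4, against 23903 to 33049 without. The 7 chondrocyte markers summed to 368 to 423 in OB with BMP4, against 113 to 153 without. In ODR they summed to 512 with BMP4, against 109 to 121 without. The 8 pluripotency markers summed to 189 to 289 in OB with BMP4, against 29 to 65 without, mostly Sall4, and to 48 in ODR with BMP4, against 4 to 9 without. The 6 smooth muscle markers summed to 1420 to 1431 in OB with BMP4, against 2748 to 3171 without, and to 1074 in ODR with BMP4, against 1067 to 1159 without. The part of these cell types in the values of the 10 genes was not tested. The library labelled OA day 14 replicate 2 had Tnn, Thbs4, Tnxb, Thbs2, Tnc and Smoc2 at 2216, 27, 2, 394, 87 and 36, and Fmod at 364, while its labels give no BMP4.

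OB cells were then set against ODR cells without BMP4. The choice of genes did not use this comparison itself, but the day 6 libraries of OB and ODR also entered the BMP4 contrast. The day 6 results of Thbs4, Tnn and Smoc2, noted for that contrast, are therefore not independent of the choice, here and below. At day 1 none of the 10 genes passed the test (limma, Benjamini-Hochberg adjusted p below 0.05 over 13860 genes), against 0.88% of all genes. None passed without the library labelled OA day 14 replicate 2 either, and 1 of the 10, Thbs1, had an unadjusted p below 0.05. In a fit of only the groups compared, 1545 of 12227 genes had one, so nothing is read from it. Thbs1 was at 9306 in both OB libraries and at the ceiling in both ODR libraries at day 1, ranks 14 and 1, and its log2 fold change of -1.01 ± 0.46 (SE) had an adjusted p of 0.511.

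At day 6, 1 of the 10 genes passed, against 10.5% of all genes. Smoc2 was at 50, 58, 44 and 32 in OB and at 149 and 180 in ODR, with no overlap, and fell by 1.84 ± 0.43 on the log2 scale (SE, limma adjusted p = 0.0107). Without the library labelled OA day 14 replicate 2 the fall was the same size with an SE of 0.23 (adjusted p = 4.24e-05). The call was lost when either ODR library was left out, with adjusted p of 0.0632 and 0.118, since the ODR group then rested on 1 library.

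Thbs4 and Tnn were also apart at day 6 without passing the test. Thbs4 ranged from 693 to 1106 in OB, against 118 and 215 in ODR, a log2 fold change of 2.43 ± 1.15 (SE, limma adjusted p = 0.21). Tnn ranged from 31 to 49 in OB, against 8 and 16 in ODR, a log2 fold change of 1.67 ± 0.85 (SE, limma adjusted p = 0.248). The OB and ODR libraries did not overlap for either gene. Both genes passed without the library labelled OA day 14 replicate 2, in which they were far from the other OA day 14 libraries, with adjusted p of 0.0221 and 0.0119. The other 7 genes had log2 fold changes between -0.89 and 0.25 and none passed in either fit.

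At day 14, 5 of the 10 genes passed, 1 higher and 4 lower in OB, against 54.7% of all genes, so the share of the 10 was near that of the table. Their median log2 fold change was -1.65, beside 0.01 over all genes tested. Among all genes 3882 were higher and 3701 lower in OB. Without the library labelled OA day 14 replicate 2 these 5 genes passed again and 7 passed in all, against 59.1% of all genes.

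Smoc1 rose in OB cells. It was at 168, 329 and 234 in OB at day 14, against 10, 0 and 2 in ODR, with no overlap. The log2 fold change was 6.2 ± 0.67 (SE, limma adjusted p = 5.54e-07) and 4.89 ± 0.42 when 5 was added before the log in place of 1. The OB level was near the 326 of the mESC library and the 294 of the MEF library, while no OA or ODR library of any day exceeded 37.

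Thbs1 was at 822, 1618 and 2219 in OB at day 14, against 9306, 18690 and 18690 in ODR. The highest OB library was below the lowest ODR library, and Thbs1 fell by 3.37 ± 0.38 on the log2 scale (SE, limma adjusted p = 9.09e-07). Only ODR held values at the ceiling, which lies a full step above the next level, so the size of the fall is bounded in neither direction. By rank within a library, Thbs1 lay between 217 and 1098 in OB and between 1 and 14 in ODR. Postn was at 1974, 5091 and 5626 in OB and at the ceiling in all 3 ODR libraries. Postn fell by 2.28 ± 0.37 on the log2 scale (SE, limma adjusted p = 4.26e-05), again a size set in part by the ceiling, with ranks from 39 to 263 in OB against 1 in ODR.

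Thbs2 was at 554, 792 and 1062 in OB at day 14, against 2886, 2886 and 3172 in ODR, and fell by 1.94 ± 0.58 on the log2 scale (SE, limma adjusted p = 0.00849). Smoc2 was at 40, 54 and 47 in OB, against 170, 218 and 177 in ODR, and fell by 1.98 ± 0.41 (SE, adjusted p = 4.98e-04). Neither gene overlapped between the groups. Smoc2 and Thbs2 are neighbours on chromosome 17, with 260709 bases between them, and Smoc2 shares 9830 bases with the antisense gene 4930474M22Rik. The strand used in counting is not stated, so reads of overlapping genes cannot be told apart.

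The other 5 genes did not pass at day 14. Thbs4 was at 88, 414 and 352 in OB, against 922, 922 and 650 in ODR, a log2 fold change of -1.80 ± 1.08 (SE, limma adjusted p = 0.17). Tnxb was at 26, 20 and 52 in OB, against 91, 59 and 122 in ODR, a log2 fold change of -1.5 ± 1.01 (SE, adjusted p = 0.221). The groups did not overlap for either gene, and both passed without the library labelled OA day 14 replicate 2, with adjusted p of 0.0227 and 6.15e-04. Thbs3, Tnc and Tnn had log2 fold changes of 0.12, -0.12 and -0.13 and did not pass in either fit, and their OB and ODR libraries overlapped.

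**Figure D3:**
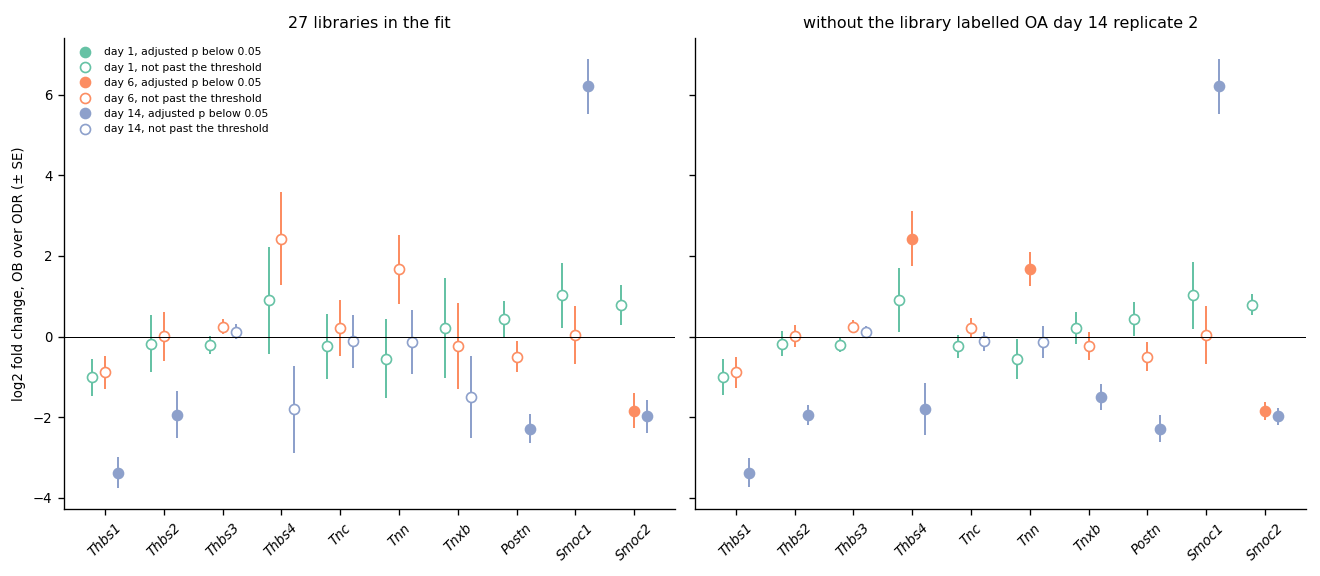
Log2 fold change of OB over ODR (y axis, ± SE from limma) for the 10 genes at days 1, 6 and 14, filled where the adjusted p is below 0.05. At day 14 Smoc1 is at 6.2 and Thbs1, Postn, Smoc2 and Thbs2 are below 0, and the right panel, without the library labelled OA day 14 replicate 2, adds Thbs4 and Tnxb at day 14 and Thbs4 and Tnn at day 6.

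Related genes from lists other than the 10 were read in the same fit. Of 20 other matricellular genes, 18 were tested, and at day 14 5 rose and 9 fell in OB relative to ODR, with a median log2 fold change of -0.90, where 54.7% of all genes passed and their median was 0.01. Spock2, a proteoglycan of the SPARC family, averaged 332 ± 16.4 in OB and 16.3 ± 6.66 in ODR (SD, n = 3 each), a log2 fold change of 4.35 ± 0.52 (SE, limma adjusted p = 1.77e-06). Sparcl1, a close relative of Sparc, rose by 3.55 ± 0.66 (SE, adjusted p = 1.95e-04), and Spock3, of the same proteoglycan family, averaged 104 ± 10.0 in OB and 60.7 ± 26.4 in ODR (SD, n = 3 each), a log2 fold change of 0.87 ± 0.27 (SE, adjusted p = 0.0111). Sparc itself fell by 1.28 ± 0.19 (SE, adjusted p = 2.07e-05). Ctgf, a CCN protein induced by TGF-beta and YAP, averaged 466 ± 245 in OB and 2673 ± 411 in ODR (SD, n = 3 each) and fell by 2.68 ± 0.43 (SE, adjusted p = 3.81e-05). Fbln5, needed for elastic fibres, fell by 1.94 ± 0.32 (SE, adjusted p = 5.46e-05). At day 6 only Spock1, another proteoglycan of the SPARC family, passed in this list, with a log2 fold change of 1.73 ± 0.28 (SE, adjusted p = 6.32e-04), and at day 14 it fell by 1.34 ± 0.26.

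Of 18 receptors for thrombospondins and tenascins, 17 were tested, and at day 14 2 rose and 11 fell in OB relative to ODR, with a median log2 fold change of -0.88, beside the same 54.7% and 0.01 over all genes. Cacna2d1, the calcium channel subunit that binds thrombospondins, fell by 2.11 ± 0.17 (SE, limma adjusted p = 2.34e-08), Itga3 fell by 1.70 ± 0.15 (SE, adjusted p = 8.98e-08) and Lrp1 fell by 0.97 ± 0.13 (SE, adjusted p = 7.87e-06). Sdc1, a syndecan typical of epithelial cells, averaged 1157 ± 41.5 in OB and 486 ± 25.5 in ODR (SD, n = 3 each), a log2 fold change of 1.25 ± 0.13 (SE, adjusted p = 3.76e-07). Itgb5, which pairs with the integrin alpha v chain, had a log2 fold change of 0.94 ± 0.18 (SE, adjusted p = 2.03e-04). At day 6 Itgb8 rose by 0.78 ± 0.21, and Itga3 and Itga9 fell by 0.85 ± 0.16 and 1.16 ± 0.22.

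Of the 13 BMP pathway targets, 7 rose and none fell in OB relative to ODR at day 14, with a median log2 fold change of 1.96. The number passing was near the 54.7% of all genes, whose median was 0.01. Id2, Id3 and Id1, inhibitors of differentiation factors, had log2 fold changes of 3.67 ± 0.48, 2.70 ± 0.38 and 2.79 ± 0.55 (SE, limma adjusted p = 4.88e-06, 9.73e-06 and 3.37e-04). At day 6 Id3 rose by 1.44 ± 0.40 and Dlx5, a bone and limb transcription factor, fell by 2.2 ± 0.53. Tnn, high with BMP4, did not pass in OB relative to ODR at day 14, where it ranged from 30 to 89 in OB and from 38 to 106 in ODR.

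Marker sums moved in OB at day 14 as well. The 8 pluripotency markers summed to 995 to 1046 in OB and to 6 in each ODR library at day 14, mostly Lin28a at 632 to 742 and Sall4 at 292 to 346, while Nanog was at 4 to 6. The 10 fibroblast markers summed to 24471 to 38711 in OB, against 35347 to 45841 in ODR, with 1 of 10 higher and 1 lower by the test. The 7 chondrocyte markers summed to 568 to 707 in OB, against 103 to 111 in ODR. Col2a1 made up 330 to 388 of that in OB and Matn1 was at 0 in both groups. The part of these cell types in the fall of Thbs1, Thbs2, Postn and Smoc2 or the rise of Smoc1 was not tested.

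OA cells were set against ODR cells in the same way. None of the 10 genes passed at day 1, against 0.0649% of all genes. None of the 10 had an unadjusted p below 0.05 there, while 997 of 12206 genes did in a fit of only the groups compared. Thbs3 passed at day 6, when 2.22% of all genes did, and at day 14, when 5.35% did. Thbs3 was at 208, 144 and 224 in OA at day 6, against 91 and 124 in ODR, a log2 fold change of 0.82 ± 0.20 (SE, limma adjusted p = 0.0419). At day 14 it was at 240, 406 and 256 in OA, against 168, 151 and 148 in ODR, a log2 fold change of 0.91 ± 0.18 (SE, adjusted p = 0.00751). The value of 406 belongs to the library labelled OA day 14 replicate 2, and without it the day 14 fold change was 0.67 ± 0.16 (adjusted p = 0.0228). Thbs3 lies inside the span annotated for Mtx1 on the opposite strand over all of its 11658 bases, so its values are uncertain. The day 6 call was lost without either ODR library or without OA replicate 1 or 3, with adjusted p from 0.107 to 0.356. Smoc2 ranged from 67 to 100 in OA at day 6, against 149 and 180 in ODR, a log2 fold change of -0.95 ± 0.46 that passed only without that library (adjusted p = 0.376 with it and 0.0299 without).

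Between OB and OA cells, none of the 10 genes passed at day 1, against 1.4% of all genes, or at day 6, against 7.28%. Thbs1 at day 1 and Thbs1, Thbs3, Postn and Smoc2 at day 6 had an unadjusted p below 0.05. In a fit of only the groups compared, 1765 of 12265 genes at day 1 and 3329 of 12542 at day 6 had one, so nothing is read from these. Without the library labelled OA day 14 replicate 2, Thbs3, Tnn and Smoc2 passed at day 6, against 11.7% of all genes in that fit. Of these, Tnn and Smoc2 are not independent of the choice of genes, which used the OB day 6 libraries. At day 14, 6 of the 10 passed, against 51.7% of all genes, with Smoc1 higher in OB and Thbs1, Thbs3, Tnn, Postn and Smoc2 lower. Smoc1 had a log2 fold change of 4.09 ± 0.67 (SE, limma adjusted p = 6.06e-05), from values of 168, 329 and 234 in OB and 37, 13 and 4 in OA. Thbs1 fell by 3.18 ± 0.38 (adjusted p = 2.46e-06) and Postn fell by 1.61 ± 0.37 (adjusted p = 0.00129). Without the library labelled OA day 14 replicate 2 their log2 fold changes were -2.91 ± 0.41 and -1.28 ± 0.38 (adjusted p = 2.04e-05 and 0.00932). That library had both genes at the ceiling, as OA replicate 3 had Thbs1, while the others had Postn at 9314. These sizes therefore depend on the step to the ceiling. The Tnn call rested on the 2216 of the library labelled OA day 14 replicate 2, and without it the log2 fold change was -0.74 ± 0.44 (adjusted p = 0.176) in place of -2.21 ± 0.80 (adjusted p = 0.0272). It was also lost without OB replicate 1 (adjusted p = 0.128). Tnc turned direction without the library labelled OA day 14 replicate 2, to -0.65 ± 0.26 (adjusted p = 0.0471) in place of 0.64 ± 0.65 (adjusted p = 0.435). Without OA replicate 1, Tnc passed with the opposite sign, at 1.49 ± 0.59 (adjusted p = 0.0437). The Smoc2 call, at -1.12 ± 0.41 (adjusted p = 0.029), was lost without OA replicate 1 or 3 or OB replicate 1 or 3, with adjusted p from 0.0581 to 0.161. Smoc2 was at 36 in the library labelled OA day 14 replicate 2, against 173 and 172 in the others. Without that library its log2 fold change was -1.86 ± 0.24 (adjusted p = 8.93e-06). Thbs2, Thbs4 and Tnxb passed only without the library labelled OA day 14 replicate 2, with log2 fold changes of -2.35, -2.54 and -2.71. In that fit 9 of the 10 genes passed, against 52% of all genes.

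Over time, Thbs4 and Tnc changed the same way in all 3 combinations between day 1 and day 6. Thbs4 was at 118 or higher in all 9 day 6 libraries of the fit and at 10 or lower in all 6 day 1 libraries. The OB and ODR day 6 libraries entered the BMP4 contrast for which Thbs4 was noted. Its changes in OB and ODR are therefore not independent of the choice of genes. It rose in OB by 6.85 ± 1.15 on the log2 scale (SE, limma adjusted p = 1.97e-04), in OA by 6.84 ± 1.21 (adjusted p = 3.10e-04) and in ODR by 5.32 ± 1.33 (adjusted p = 0.00677). Tnc ranged from 888 to 1352 at day 6 and from 5622 to 7097 at day 1, and fell by 2.29 ± 0.69 in OB, 2.54 ± 0.73 in OA and 2.75 ± 0.80 in ODR (adjusted p = 0.0158, 0.0117 and 0.0171). Without the library labelled OA day 14 replicate 2, where Tnc was at 87, the falls kept their size. Their SEs were then 0.25, 0.26 and 0.29 (adjusted p = 1.92e-06, 1.19e-06 and 2.42e-06). Thbs1 fell too, by 1.17 ± 0.40 in OB, 1.27 ± 0.42 in OA and 1.29 ± 0.46 in ODR (adjusted p = 0.0307, 0.0271 and 0.0487). OA and ODR were at the ceiling for Thbs1 at day 1, so the sizes of those falls depend on its step above the next level. The 6 smooth muscle markers summed to 2748 to 3171 in OB at day 6, against 7628 to 23582 at day 1, with 5 lower and 1 higher by the test. Their sums were 2091 to 3196 in OA at day 6, against 11030 to 15266 at day 1 (5 lower, 1 higher), and 1067 to 1159 in ODR at day 6, against 9191 to 14581 at day 1 (4 lower). None of these markers was at 0 in all libraries of a group, and their part in the changes of Tnc, Thbs1 and Thbs4 was not tested. Tnc shares 67162 bases with 8030451A03Rik on the opposite strand.

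Other changes from day 1 to day 6 passed in 1 combination each. Tnn rose in OB by 2.60 ± 0.85 (SE, limma adjusted p = 0.0243), with 36, 49, 31 and 39 at day 6 and 5 and 6 at day 1. In ODR, Postn rose by 1.80 ± 0.45 (adjusted p = 0.00672) to the ceiling in both libraries at day 6, against 5626 and 5091 at day 1. Smoc2 rose in ODR by 1.81 ± 0.50 (adjusted p = 0.013), at 149 and 180 at day 6 against 48 and 44 at day 1. Tnn and Smoc2 were noted for the BMP4 contrast, which used the same OB and ODR day 6 libraries. Their changes here are therefore not independent of the choice of genes. The differences of these changes between combinations were not tested. Without the library labelled OA day 14 replicate 2, Thbs2, Tnxb and Smoc2 also passed in OB and in OA, and Tnxb in ODR, with Smoc2 at -0.82 ± 0.23 in OB and 0.74 ± 0.24 in OA. That fit gave 7 of the 10 genes in OB, 6 in OA and 6 in ODR, against 39%, 40.1% and 30.8% of all genes. In the fit with that library, 4 of the 10 genes passed in OB, against 33.8% of all genes, 3 in OA, against 34.6%, and 5 in ODR, against 25.1%. The Thbs1 and Tnc calls of each combination, and the Tnn call in OB, were lost without either of its day 1 libraries, with adjusted p from 0.0608 to 0.159. The Thbs1 call was also lost without replicate 1 or 2 of day 6 in each combination (adjusted p from 0.0531 to 0.258), and so was the Tnc call in ODR (0.0887 and 0.0599). The Smoc2 call in ODR was lost without either day 1 library or day 6 replicate 2 (adjusted p from 0.0515 to 0.0832), and the Postn call without day 1 replicate 2 (adjusted p = 0.0513). The Thbs4 call in ODR was lost without replicate 2 of day 1 or of day 6 (adjusted p = 0.0896 and 0.0564), and leaving out 1 library took the count to 1 in OB, 1 in OA and 0 in ODR at the lowest. The shared library, if kept as ODR day 6, had Thbs1 at 18690 and Postn at 6251, and the Thbs1 and Postn calls were then lost (adjusted p = 0.177 and 0.0523).

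Between day 6 and day 14, 5 genes passed in OB, against 55% of all genes. Smoc1 rose by 4.77 ± 0.62 (SE, limma adjusted p = 5.11e-06), with 168, 329 and 234 at day 14 and 8, 7, 10 and 6 at day 6. Thbs2 fell by 2.72 ± 0.54 (adjusted p = 3.71e-04), Postn fell by 1.78 ± 0.34 (adjusted p = 2.69e-04) and Thbs1 fell by 1.52 ± 0.35 (adjusted p = 0.00139). The libraries of the later day lay below those of the earlier day for all 3 genes. Thbs3 rose by 0.41 ± 0.17 (adjusted p = 0.0492), its lowest day 14 library (144) just above its highest day 6 library (140), and the call was lost without any of 5 of the 7 libraries, with adjusted p from 0.0691 to 0.155. Thbs4, at -1.88, passed without the library labelled OA day 14 replicate 2 (adjusted p = 0.0127) and in a fit of only these groups (adjusted p = 0.0159). In ODR none of the 10 passed, against 3.95% of all genes, while Thbs1, Thbs3 and Tnn had an unadjusted p below 0.05. In a fit of only the groups compared, 2649 of 12363 genes had one, so nothing is read from these. Tnn was at 74, 106 and 38 in ODR at day 14, against 8 and 16 at day 6, and did not pass (adjusted p = 0.138). Tnn passed without the library labelled OA day 14 replicate 2 (adjusted p = 0.0025) and with the shared library kept as ODR day 6 (adjusted p = 0.0423). The day 6 values of Thbs4 and Tnn entered the BMP4 contrast for which they were noted, so these results are not independent of the choice of genes.

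In OA, Tnn and Thbs3 passed between day 6 and day 14, against 8.14% of all genes. Tnn was at 116, 2216 and 90 in OA at day 14, against 14, 15 and 9 at day 6, with a log2 fold change of 4.42 ± 0.80 (SE, limma adjusted p = 0.00291). Without the library labelled OA day 14 replicate 2, which held the 2216, it was 2.95 ± 0.44 (adjusted p = 6.96e-04). Thbs3 had a log2 fold change of 0.63 ± 0.18 (adjusted p = 0.0418), which was 0.39 ± 0.16 (adjusted p = 0.164) without that library and was also lost without day 6 replicate 1 or 2 (adjusted p = 0.0542 and 0.213). Tnxb was at 218 and 188 in the other OA day 14 libraries and at 33 to 35 at day 6, and it passed only without that library, where Tnxb was at 2, with 2.54 ± 0.36 (adjusted p = 3.75e-04).

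The change from day 6 to day 14 was then tested for a difference between OB and ODR, and 4 of the 10 genes passed, against 35.4% of all genes. Smoc1 changed more in OB, by 6.16 ± 0.97 on the log2 scale (SE, limma adjusted p = 1.40e-04). Thbs4 changed by -4.23 ± 1.58 in OB relative to ODR (adjusted p = 0.045), Thbs1 by -2.48 ± 0.55 (adjusted p = 0.00213) and Postn by -1.78 ± 0.54 (adjusted p = 0.0149). The Thbs4 call was lost without any 1 of the day 6 and day 14 libraries of OB and ODR other than OB day 14 replicates 2 and 3, with adjusted p from 0.0555 to 0.143. The Thbs4 levels at day 14 were 88, 414 and 352 in OB and 922, 922 and 650 in ODR, and at day 6 they were 693 to 1106 in OB and 118 and 215 in ODR. Those day 6 libraries entered the BMP4 contrast for which Thbs4 was noted, so its result is not independent of the choice of genes. Postn was at the ceiling in ODR on both days, so its ODR change bounds nothing. Without the library labelled OA day 14 replicate 2, Thbs2, Tnn and Tnxb passed as well, which made 7 of the 10 genes, against 41.4% of all genes. The Thbs4 difference then kept its size with an SE of 0.94 (limma adjusted p = 0.00177).

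**Figure D4:**
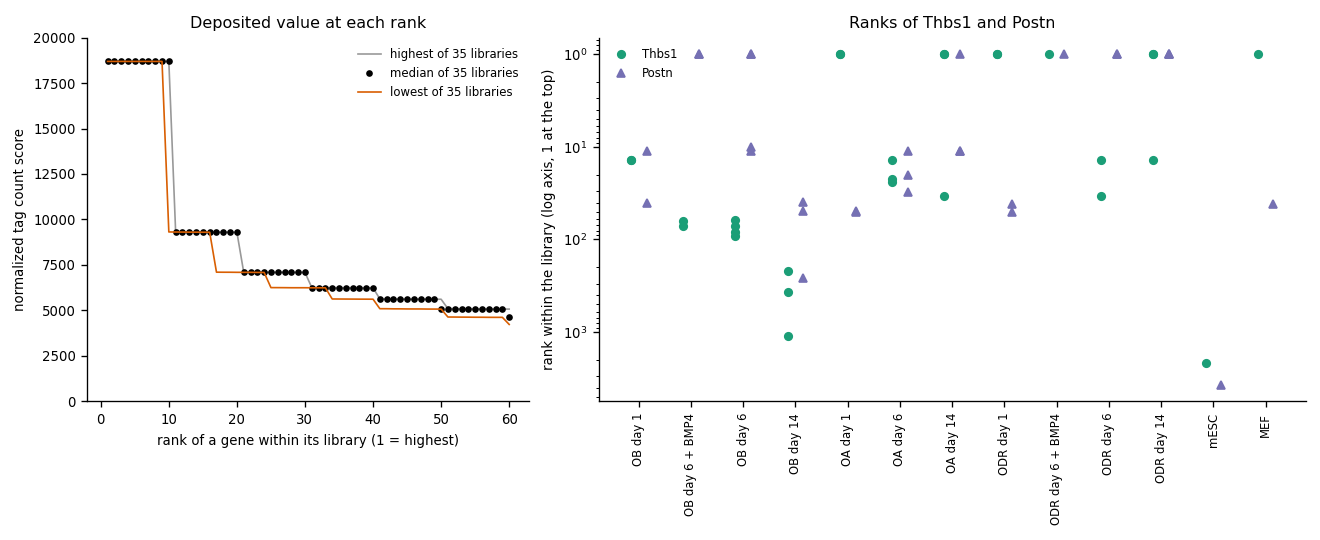
Left, the deposited value (y axis) at each rank within a library (x axis), as the highest, median and lowest of 35 libraries, with a step between the ceiling of 18690 and the level near 9314. Right, the rank of Thbs1 and Postn in each library (log axis, rank 1 at the top), where OB at day 14 lies at ranks 217 to 1098 for Thbs1 and 39 to 263 for Postn.

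The levels of single genes across the replicated groups, with the library labelled OA day 14 replicate 2 set aside, had clear ends and crowded middles. Thbs4 was highest in OA at day 14 (1312 and 1432), which did not overlap with any other group. OB at day 6 (693 to 1106), ODR at day 14 (650 to 922) and OA at day 6 (597 to 789) overlapped as neighbours in that order, as did OB at day 14 and ODR at day 6 below them. All day 1 and BMP4 groups were at 10 or lower. Tnn was highest in ODR with BMP4 (4217), then OB with BMP4 (734 and 1115), and no group without BMP4 exceeded 116. Smoc1 was highest in OB at day 14, with no overlap with the other groups. Smoc2 was highest in ODR and OA at day 14 and ODR at day 6, which overlapped, and lowest in ODR with BMP4 (18).

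The genes most like each member over the 11 group means were found by the mean absolute difference of log2(mean + 1), each gene centred on its own mean. Smoc1 had close matches in Kif21b (0.25), Gfra3 (0.30) and Hoxd1 (0.35). The nearest to Thbs4 were Dpt (1.02), Aadac (1.07) and Tll2 (1.12), and the nearest to Tnn were Mal (0.77), Col15a1 (0.83) and C1ql1 (0.87), which are larger distances. The measure is not scaled to the range of a gene, and Thbs4 and Tnn ranged widely, so distances are not compared between members. Smoc2 was nearest to Ada (0.29), Plcb1 (0.38) and Tmem51 (0.39), Tnxb to Scara5 (0.41), Atp8b1 (0.45) and Lpar1 (0.47), and Tnc to P2rx5 (0.39), Fgf16 (0.40) and Myl9 (0.40). Thbs1 was nearest to Otor (0.30), Osgin1 (0.35) and Aox1 (0.36), Thbs2 to Kif13b (0.27), Ank3 (0.28) and Sgsm2 (0.28), Thbs3 to Dhx32 (0.18), Tnfrsf22 (0.19) and Snd1 (0.20), and Postn to Maf (0.24), Wdr72 (0.26) and Wbscr27 (0.28). Among the 10 genes the nearest pair was Thbs3 with Postn (0.77). Each member was farther from every other member than from its own 3 nearest genes. The means include the library labelled OA day 14 replicate 2.

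The unreplicated libraries gave values without a test. In mESC against MEF, 9 of the 10 genes were lower, and Smoc1 was at 326 in mESC and 294 in MEF. How many of all genes were lower in mESC was not counted, so nothing is read from that number. Thbs1 was at 510 in mESC and at the ceiling in MEF, Thbs2 at 148 and 5078, Tnc at 300 and 9308 and Postn at 313 and 5626. Thbs4, Tnxb and Smoc2 were listed at 0 in mESC, against 12, 3 and 257 in MEF. At day 9, ODB had lower Postn (3706) than ODDR (at the ceiling), lower Thbs2 (1018 against 2536), lower Smoc2 (6 against 27) and higher Smoc1 (61 against 9). These are the directions seen in OB relative to ODR at day 14. Thbs1 differed the other way, at 5083 in ODB and 3496 in ODDR, and Thbs4 was at 12 in both.

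In the mm10 assembly (GRCm38, GENCODE vM21) the genes lie at chr2:118111876-118127133 on the plus strand (Thbs1), chr17:14665500-14694235 minus (Thbs2), chr3:89215180-89226837 plus (Thbs3) and chr13:92751590-92794818 minus (Thbs4). The tenascins lie at chr4:63959785-64047015 minus (Tnc), chr1:160085029-160153580 minus (Tnn) and chr17:34670535-34719815 plus (Tnxb). Postn lies at chr3:54361109-54391037 plus, Smoc1 at chr12:81026808-81186414 plus and Smoc2 at chr17:14279506-14404790 plus. The start of Gm13986, an opposite-strand gene that is in the table, lies 674 bases from that of Thbs1.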

How the data were processed

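Poly-A selected RNA from mouse cells was sequenced in 35 libraries. The submitters' processing notes name RSEM, Bowtie2 2.2.5, bcl2fastq and build mm10. The authors deposited a normalized tag count score per gene, whole numbers with library totals from 4255921 to 4398785, with a normalization that the sources do not state. The design assumed values that may be counts. These are not, so its fallback for other units was used.

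Values were taken as log2(value + 1), and the 13860 genes with at least 10 in at least 2 fitted libraries were kept, all 10 members among them. A mean for each of 11 groups was fitted to 27 libraries with limma 3.58.1 (R 4.3.3, 16 residual degrees of freedom), without trend, robust options or a replicate block. Tests were two-sided, with Benjamini-Hochberg adjustment over all genes of each of 16 comparisons. The fit pools the spread over groups, and a lone library is taken to vary as the other groups do. It was tested on simulated data. Named genes are the 10 members, up to 3 called genes per direction, by adjusted p, of 3 related lists in OB against ODR at days 6 and 14, defining markers, and the 3 genes most like each member. The lists are other matricellular genes, receptors, BMP targets and markers of 9 cell types. Markers of osteoblasts, smooth muscle, endothelium, macrophages and Schwann cells are given in the closing section. The members and lists were chosen with earlier results of these data known. Gene spans come from GENCODE vM21 and promoters from RefSeq, and 10 alternatives were planned.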

Additional observations from a re-analysis of the deposited data

Results flagged for a closer look

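Each of 4 genes changed differently from day 6 to day 14 in OB than in ODR, by a test of the difference itself (limma, Benjamini-Hochberg adjusted p below 0.05 over 13860 genes). The log2 difference of the changes was 6.16 for Smoc1, -4.23 for Thbs4, -2.48 for Thbs1 and -1.78 for Postn. Thbs4 was noted for the BMP4 contrast, which used the same OB and ODR day 6 libraries. Its difference is therefore not independent of the choice of genes. The Smoc1 difference was 4.86 with 5 added before the log, since ODR values are near 0. The Thbs4 difference lost its call under 3 other settings and in 10 of 12 fits without 1 library, with adjusted p up to 0.143. Without the library labelled OA day 14 replicate 2, the Thbs4 difference kept its size with an SE of 0.94 (limma adjusted p = 0.00177). Postn was at the ceiling of the unit in all fitted ODR libraries of both days, and Thbs1 in 2 of the 3 ODR day 14 libraries. No library stood apart among the 4 OB day 6 libraries for any of the 10 genes by Dixon's criterion.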

How the results depend on the processing

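Counts are of the 10 members that passed (limma, adjusted p below 0.05), and the alternatives other than leaving out the libraries of a group in turn were 9. OB against ODR at day 1 and OA against ODR at day 1 gave 0 and OB against OA at day 1 gave 0 under every alternative, and OB against ODR at day 14 gave 5 to 7. OB against ODR at day 6 gave 1, and 2 with the replicate block, 2 with the shared library kept as ODR day 6, 2 with it under both labels, 3 without the library labelled OA day 14 replicate 2 and 4 in a fit of only the groups compared. OA against ODR at day 6 gave 1, and 0 with no filter, 0 with the replicate block, 0 with both labels, 0 in the fit of those groups and 2 without that OA library. OA against ODR at day 14 gave 1, and 0 with both labels and in the fit of those groups. OB against OA at day 6 gave 0, and 1 with a pseudocount of 5 or an intensity trend, 3 without that OA library and 3 in the fit of those groups, and at day 14 it gave 6 and 2 in the fit of those groups. ODR day 6 against day 1 gave 5, and 3 with the shared library kept as ODR or under both labels, and day 14 against day 6 gave 0, and 2 with it as ODR, without that OA library or in the fit of those groups. OA day 6 against day 1 gave 3, and 6 without that OA library, and day 14 against day 6 gave 2, and 1 with no filter, 1 with the replicate block, and 0 with both labels or in the fit of those groups. OB day 6 against day 1 gave 4, and 7 without that OA library and 8 in the fit of those groups. The difference between OB and ODR in the change from day 6 to day 14 gave 4, and 7 without that OA library. At day 6, 15.3% of all genes passed without that OA library for OB against ODR. For OA against ODR it was 4.67% and for OB against OA 11.7%. From day 1 to day 6 it was 40.1% in OA and 39% in OB, and for the difference of changes 41.4%. In the fits of only the groups compared, 1596 of 12450 genes passed for OB against ODR at day 6. For OB against OA at day 6 it was 1490 of 12542, and for OB day 6 against day 1 it was 4663 of 12601.

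Leaving out 1 library in turn gave 0 to 1 for OB against ODR at day 6, 5 to 5 at day 14, 0 to 1 and 1 to 3 for OA against ODR at days 6 and 14, and 0 to 1 and 4 to 9 for OB against OA. From day 1 to day 6 it gave 0 to 3 in ODR, 1 to 3 in OA and 1 to 4 in OB, and from day 6 to day 14 0 to 0 in ODR, 1 to 3 in OA, 4 to 5 in OB and 3 to 4 for their difference with ODR. The day 14 log2 fold change of Tnc in OB against OA was 0.64, and -0.65 to 1.49 with 1 library left out, the lowest without the library labelled OA day 14 replicate 2, the only reversal. Without that library 26 of 64 pairs of gene and comparison came to pass, 2 ceased to and 35 kept their side. Over all genes, counts moved by over 1.5 times as follows. Without that library there were 262 calls in place of 122 for OB against ODR at day 1, 23 in place of 9 for OA against ODR at day 1 and 645 in place of 308 at day 6, 408 in place of 194 for OB against OA at day 1 and 1624 in place of 1009 at day 6, and 1097 in place of 548 for ODR day 14 against day 6. With the shared library as ODR these were 566 for OA against ODR at day 6 and 1123 for ODR day 14 against day 6, and under both labels 70, 123 and 475 (in place of 741) for OB against ODR at day 1, OB against OA at day 1 and OA against ODR at day 14. The fit of only the groups compared gave 13, 2 and 12 at day 1 for OB against ODR, OA against ODR and OB against OA, 187 and 5 for OA against ODR at days 6 and 14, 4563 in place of 7164 for OB against OA at day 14, and 4 in place of 1128 for OA day 14 against day 6. No filter gave 47 for OA against ODR at day 1. The cause of these changes was not tested. Deviations of same-numbered libraries correlated at -0.16 to 0.32, above 0.1 in 12 of 22 pairs. In none of the 4 pairs of groups with at least 3 shared numbers were all correlations above 0.1, and the labels give the numbers no meaning, so they were not taken as pairing. Yet 22 of 24 libraries there correlated best with their own number, a hint from the data and not the design. With the replicate block, 4 calls were lost, those of Thbs3 in OA against ODR at day 6 (adjusted p = 0.0796), in OA day 14 against day 6 (0.0554) and in OB day 14 against day 6 (0.0743), and of Thbs4 in the difference of changes (0.0839). The unit holds no depth, and values near 0 or at the ceiling limit every fold change given.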

Other observations

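Marker lists not described above are given as summed values for OB against ODR at day 14. The 6 osteoblast markers summed to 136 to 263 in OB and 776 to 1026 in ODR, with Runx2 and Alpl lower and Sp7 higher by the test and Dmp1 at 0 in both. The 6 smooth muscle markers summed to 843 to 2125 in OB and 2353 to 2952 in ODR, the 5 endothelial markers to 90 to 114 in OB and 256 to 319 in ODR, and 4 macrophage markers to 9 to 32 in OB and 39 to 53 in ODR. The 5 Schwann cell and neural crest markers summed to 30 to 44 in OB and 20 to 158 in ODR, and the 6 tendon markers to 47 to 86 in OB and 38 to 53 in ODR. With BMP4 at day 6, the osteoblast markers summed to 700 to 727 in OB, against 458 to 543 without, and to 1024 in ODR, against 379 to 562 without, with Bglap and Dmp1 at 0 in these BMP4 libraries. Endothelial markers summed to 120 to 129 in OB with BMP4, against 155 to 244 without, and macrophage markers to 72 to 77, against 113 to 142. In ODR the endothelial sum was 329 with BMP4, against 388 in each library without. The ODR macrophage sum was 112 with BMP4, within the range of 91 to 184 without. Their part in the values of the 10 genes was not tested.

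At day 9, 11 of the 13 BMP pathway targets were higher in the shared BMP4 library than in ODB and ODDR. Id1 was the exception in level, at 5616 with BMP4 and at 9301 in both ODB and ODDR, and Dlx5 was at 0 with BMP4, 0 in ODB and 3 in ODDR.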
